A study of Mus musculus with 45 samples.

Results

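Mouse forelimb buds cultured for 48 h with 50 µM bisphenol A (BPA) were compared with limb buds cultured for the same time with the vehicle alone. The comparison holds 10 of the 45 libraries of the series, chosen by their titles: 5 libraries of 50 µM BPA and 5 of vehicle, numbered 1 to 5 in each group. It answers which transcripts differed after 48 h of exposure, the longest time sampled. The falls included many genes of skeletal muscle and 10 of 26 genes of tendon and connective tissue. The rises included genes of the integrated stress response, amino acid uptake, endoplasmic reticulum folding and sterol synthesis. Of 15 early regulators of cartilage, 3 rose and 3 fell, and some of these calls were lost with a library left out.

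BPA is a small bisphenol used to make polycarbonate plastics and epoxy resins, and it is known as a weak ligand of estrogen receptors. A limb bud at this age holds cartilage condensations that will be replaced by bone, a perichondrium around them, tendon and joint progenitors, and muscle precursors that migrated in from the somites. In the integrated stress response, kinases that sense unfolded protein, amino acid shortage or other stress phosphorylate the translation factor eIF2α, and the transcription factor ATF4 then activates genes of amino acid supply. The endoplasmic reticulum (ER) has a response of its own, in which ATF6 and XBP1 raise chaperones, and sterol synthesis is set by SREBP2, which is released when membrane sterol is low. Myogenic factors of the MyoD family turn muscle precursors into fibres that express the contractile proteins of the sarcomere.

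The 50 µM BPA libraries came from CD1 forelimbs of gestation day 13 treated with 50 µM BPA for 48 h, and the vehicle libraries from CD1 forelimbs of the same age given dimethyl sulfoxide (DMSO) for 48 h. Times and doses beside these were 50 µM BPA and DMSO at 3 and 24 h, and 10 µM BPA at 48 h, with 5 libraries in each of these groups. No genetic change is labelled in any group. Per the labels, forelimbs were pooled in bottles of BGJb medium and male and female embryos were not kept apart, so a library averages over cell types, embryos and sexes. Nothing in the labels ties the libraries of a group to separate litters, cultures or days, and the p-values therefore describe the spread between these 5 and 5 samples, which may be technical. The treatment text shared by all libraries gives 3 hours of culture, whereas the titles and the label for treatment length give 48 h for these 10 libraries; the titles were followed throughout. At 3 h, the label for treatment length of the 50 µM libraries reads 24 hours and the title was again followed. In this culture the limb has no blood supply and no maternal metabolism.

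Total counts over genes were 19576840 to 24526666 in 50 µM BPA libraries and 18276530 to 22586813 in vehicle libraries. The forelimb label held: Tbx5, a transcription factor of the forelimb, averaged 51.4 FPKM (the authors' value per transcript length and library size) in 50 µM BPA libraries and 47.7 FPKM in vehicle libraries, whereas Pitx1, its hindlimb counterpart, averaged 1.14 and 1.25 FPKM in the same order of groups. On the log2 scale of CPM (counts over scaled library size), the leading principal component held 22.9% of the variance and separated the groups without overlap. Vehicle replicate 4 stood apart in epidermal genes. The mean log2 CPM of the 32 epidermal markers was 2.734 to 3.993 in 50 µM BPA libraries, against 1.177 in vehicle replicate 4 and 3.096 to 4.293 in the other vehicle libraries. Krt5, a keratin of basal epidermis, had 117, 112, 84.7, 41.1 and 52.6 CPM in 50 µM BPA replicates 1 to 5 and 145, 162, 109, 3.62 and 36.5 CPM in vehicle replicates 1 to 5. With the epidermal level as a covariate in the model 1788 genes were called, and no call of a gene named here was lost. Xist and Ddx3y, which mark female and male cells, did not separate the groups (adjusted p = 0.826 and 0.735).

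Of the 16732 genes, 1536 were called at an adjusted p under 0.05 (9.18% of genes tested; edgeR quasi-likelihood test with Benjamini-Hochberg adjustment, which also gave every adjusted p below). Of these, 650 genes were higher (3.88%) and 886 were lower (5.3%) with 50 µM BPA. Changes were mostly small: 993 called genes moved by less than 1.5-fold, 29 rose by more than 2-fold and 221 fell by more than 2-fold. The median log2 fold change over all genes tested was -0.0049. In 1174 called genes the 5 libraries of 50 µM BPA did not overlap the 5 vehicle libraries in CPM, and over all genes tested 1523 did not overlap (9.1%), 665 with 50 µM BPA higher (3.97%) and 858 with it lower (5.13%). With the replicate number as a block, the same test called 2598 genes, 1219 higher and 1379 lower, including 1528 of the 1536. The authors' deposited table for the same comparison lists 1972 genes at an adjusted p under 0.05, 898 higher and 1074 lower. All log2 fold changes below are 50 µM BPA over vehicle at 48 h unless a time or dose is named, and ± with them is the standard error. Counts of called list members at 48 h are to be read beside the shares of all genes tested, 3.88% higher and 5.3% lower. Several lists lie near or below these shares. List counts with the replicate block have a larger background, 1219 higher and 1379 lower of the 16732 genes. A larger list count under the block is therefore not particular to that list.

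**Figure D1:**
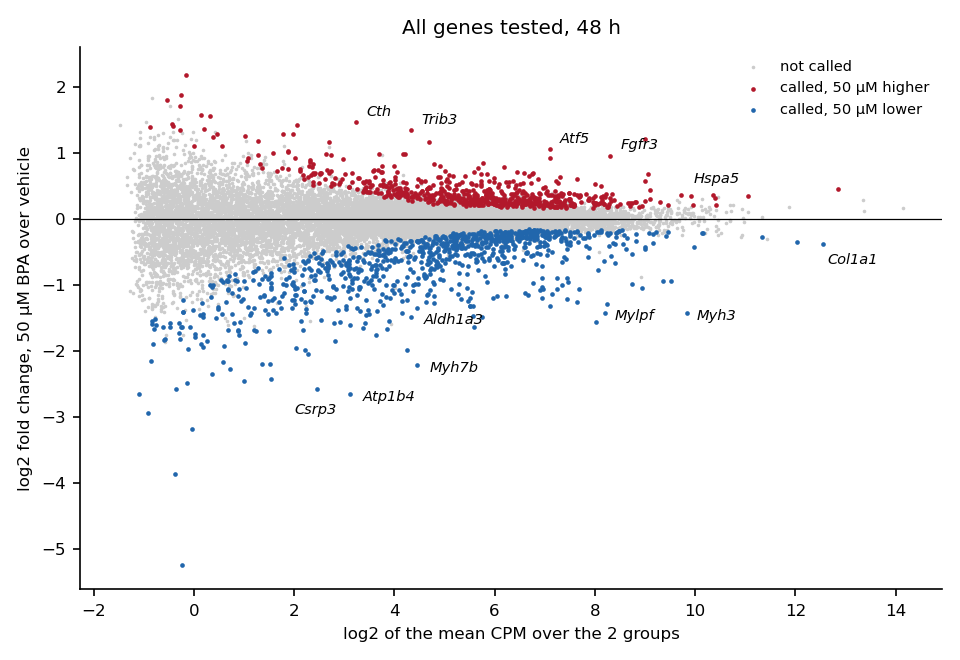
Each point is a gene tested at 48 h; the horizontal axis is the log2 of its mean CPM over both groups and the vertical axis its log2 fold change, 50 µM BPA over vehicle. The 650 called rises are red, the 886 called falls blue and other genes grey; falls of muscle genes such as Myh3 and Mylpf stand below -1 at high mean CPM, and the lowest points are genes of low mean CPM.

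By the naming rule, the 10 protein-coding genes with the largest fall were Atp1b4, Csrp3, Ucma, Myh7b, Best3, Fsd2, Tigd4, Fgf6, Tceal7 and Sh3bgr. Their log2 fold changes lay between -2.65 (Atp1b4) and -1.96 (Sh3bgr). Csrp3 encodes a Z-disc protein of striated muscle, Myh7b a myosin heavy chain, Fgf6 a growth factor of muscle precursors, and Ucma a secreted protein of growth-plate cartilage. The 10 with the largest rise were Cth, Adm2, Trib3, Derl3, Slc16a9, Rarb, Chac1, Atf5, Unc13c and Cldn11, between 1.46 (Cth) and 0.98 (Cldn11). The rule admitted only called genes whose groups did not overlap in CPM. Lack of overlap in these falls and rises, also where it is given below, was therefore set by the rule. Many other genes below were named for the smallest p in their list, which also favours lack of overlap. Cth makes cysteine from cystathionine, Trib3, Chac1 and Atf5 are targets of ATF4, Derl3 serves ER-associated degradation, and Rarb is a retinoic acid receptor. The call of Unc13c (adjusted p = 0.0457) was lost without 50 µM replicate 1, 2, 3 or 4 or vehicle replicate 2 or 3.

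**Figure D2:**
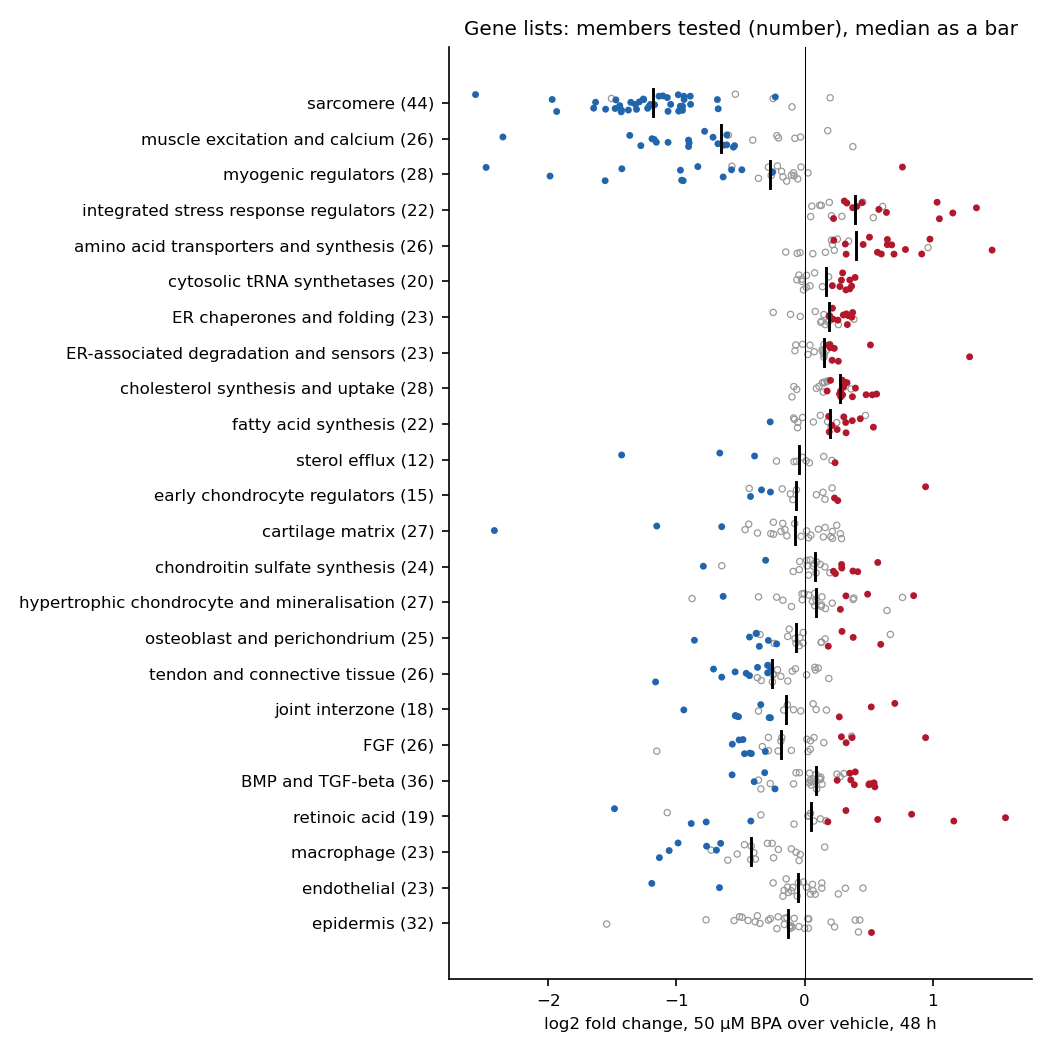
Each row is a gene list, with the number of members tested in brackets; points are the members' log2 fold changes at 48 h (50 µM BPA over vehicle), filled red or blue where called higher or lower and open where not called, and the bar is the median. Sarcomere members lie mostly below -0.5, and the lists of stress response and amino acid supply lie mostly above 0.

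Gene lists here and below were chosen with earlier results of these data known, so their counts beside the background are descriptions and no independent test. Skeletal muscle transcripts fell with 50 µM BPA. Of 44 sarcomere genes tested, 39 fell and none rose, against a background of 5.3% of genes called lower; their median log2 fold change was -1.19. These genes took 0.362% to 0.545% of all counts in 50 µM BPA libraries, against 0.77% to 1.13% in vehicle libraries. Of 26 genes of muscle excitation and calcium handling, 18 fell and none rose, with a median of -0.65. Together with the myogenic regulators, the muscle lists held 98 distinct genes tested, or 0.586% of all genes tested, and 38 of the 221 genes that fell by more than 2-fold, or 17.2%. In bulk tissue, fewer muscle cells and less muscle RNA per cell cannot be told apart.

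Mylpf encodes the fast skeletal regulatory light chain of myosin (ENSMUSG00000030672, chr7:127208890-127214298 in mm10). It had 104.5, 161, 179, 167 and 185 CPM in 50 µM BPA replicates 1 to 5, against 385, 341, 441, 475 and 504 CPM in vehicle replicates 1 to 5. Every treated library was below every vehicle library, and 50 µM replicate 1 was the lowest of all. The level was 2.7-fold lower with BPA (-1.43 ± 0.14 in log2; adjusted p = 2.53e-05). Myh3, the embryonic myosin heavy chain (chr11:67078300-67102291), had 331, 496, 549.5, 512 and 587 CPM in 50 µM BPA replicates and 1098, 1056, 1424, 1512 and 1575 CPM in vehicle replicates. Again the groups did not overlap, and the gene fell by 1.43 ± 0.14 in log2 (adjusted p = 2.86e-05). Myh8, the perinatal myosin heavy chain, averaged 133 ± 30.8 CPM in 50 µM BPA libraries and 389 ± 57.2 CPM in vehicle libraries (SD, n = 5 each), and replicate 1 of 50 µM BPA had the lowest value, 78.3 CPM. Replicate 1 was also the lowest treated library in Myl1, Tnnc1, Csrp3, Casq2, Pygm and Des.

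Among other contractile and metabolic genes, Myl1, an alkali light chain of myosin, fell by 1.26 (adjusted p = 2.53e-05) and Tnnc1, the slow and cardiac troponin C, by 1.21 (adjusted p = 2.67e-05). Klhl40, which stabilises thin-filament proteins, fell by 1.22. Myh7b averaged 7.77 ± 2.14 CPM in 50 µM BPA libraries and 36 ± 7.73 CPM in vehicle libraries (SD, n = 5 each), 4.64-fold lower. Csrp3 had 0.248, 1.72, 1.7, 2.23 and 2.05 CPM in 50 µM BPA replicates, against 7.31, 9.34, 8.97, 11.2 and 10.4 CPM in vehicle replicates. Casq2, a calcium store protein of the sarcoplasmic reticulum, fell by 1.16, and Pygm, the muscle glycogen phosphorylase, by 1.17. Col22a1, a collagen of the muscle-tendon junction, fell by 1.19 (adjusted p = 0.002), and Sptb, a spectrin of red cells and muscle, by 1.06. Best3, Fsd2 and Sh3bgr, for which no list was set, averaged 0.912 ± 0.277, 1.02 ± 0.461 and 1.68 ± 0.45 CPM in 50 µM BPA libraries, and 4.22 ± 1.31, 4.72 ± 1.56 and 6.51 ± 1.24 CPM in vehicle libraries (SD, n = 5 each).

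Of 28 myogenic regulators tested, 12 fell and 1 rose, with a median of -0.27. Myf5, a factor of early muscle precursors, had 4.52, 3.98, 4.94, 3.32 and 2.46 CPM in 50 µM BPA replicates and 8.13, 12.1, 11.6, 12.4 and 12.5 CPM in vehicle replicates, without overlap, and was 2.94-fold lower (adjusted p = 8.47e-05). Lbx1, which marks precursors migrating into the limb, fell by 1.43, Msc, a repressor in muscle precursors, by 0.95, and Fgf6 by 1.99. Des, the muscle intermediate filament desmin, fell by 0.57 (adjusted p = 0.0105). Myod1, the founding factor of the MyoD family, had 87.2, 96.1, 103, 111.5 and 117 CPM in 50 µM BPA replicates and 95.8, 82.4, 113.5, 122 and 131 CPM in vehicle replicates. These ranges overlapped (log2 fold change -0.08 ± 0.11; adjusted p = 0.727). Myog, a factor of terminal differentiation, had a log2 fold change of -0.28 ± 0.14 that was not called (adjusted p = 0.257) but was called with the replicate block (adjusted p = 0.00146). Eya2, a transcriptional cofactor in muscle precursors and other limb cells, was the member that rose, with 72.5, 56.9, 57.6, 69.8 and 65.5 CPM in 50 µM BPA replicates and 36.8, 34.6, 34, 40 and 44.4 CPM in vehicle replicates.

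The letters CAGCTG, a form of the E-box that MyoD family factors are known to bind, were searched in RefSeq promoter windows (GRCm38.p6) from 250 bases before to 50 bases after the gene start. They stood in a window of 14 of 37 sarcomere genes (37.8%), 11 of 19 excitation genes (57.9%) and 6 of 18 myogenic regulators (33.3%). Of these carriers 12, 8 and 2 were called, in the same order. Over all 32851 windows the share was 16.3%. A list gene counted once if any of its windows held a match, whereas the share of all windows counts each window. The list shares and the share of all windows are therefore not on the same scale. In the whole lists 39 of 44 sarcomere genes, 18 of 26 excitation genes and 12 of 28 myogenic regulators fell. Whether genes with the letters were called more often than other members was not tested. The promoter of Mylpf is shown because its transcript illustrates the fall, with the E-box letters, which read the same on both strands, in capitals (chr7:127211358-127211657, plus strand). The RefSeq start lies inside the longer gene span of the annotation used above:
Mylpf: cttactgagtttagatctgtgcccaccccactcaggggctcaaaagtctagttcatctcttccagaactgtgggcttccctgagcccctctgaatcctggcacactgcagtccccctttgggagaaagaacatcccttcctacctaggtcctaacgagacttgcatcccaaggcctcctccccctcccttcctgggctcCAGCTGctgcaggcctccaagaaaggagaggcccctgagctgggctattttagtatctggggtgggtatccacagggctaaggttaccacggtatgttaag

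Genes of the integrated stress response rose with 50 µM BPA. Of 22 genes of this list tested, 12 rose and none fell, against a background of 3.88% of genes called higher, and all 22 log2 fold changes were above 0, with a median of 0.39. Of 26 genes of amino acid transport and synthesis, 15 rose and none fell (median 0.40; 21 rose with the replicate block). Of 20 cytosolic tRNA synthetases, which charge tRNAs with their amino acids, 9 rose and none fell (median 0.16). Over these lists and the ER lists below, 113 distinct genes were tested, of which 55 rose and none fell.

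Trib3, a pseudokinase induced by ATF4 that restrains it in turn (ENSMUSG00000032715, chr2:152337422-152344032 in mm10), had 28.1, 32.2, 20.4, 35.4 and 29.2 CPM in 50 µM BPA replicates, against 9.32, 16, 9.79, 11.2 and 11.1 CPM in vehicle replicates. All treated libraries were above all vehicle libraries, and vehicle replicate 2 was the highest of its group. The gene rose 2.53-fold (log2 1.34 ± 0.16; adjusted p = 8.19e-05). Atf5, a transcription factor downstream of eIF2α (chr7:44812256-44816658), had 168, 178, 172, 224 and 188 CPM in 50 µM BPA replicates and 83.6, 115, 73.5, 83.2 and 93.4 CPM in vehicle replicates, and rose 2.07-fold (adjusted p = 2.86e-05). Chac1, which degrades glutathione, had 30, 36.8, 33.2, 44.6 and 35.1 CPM in 50 µM BPA replicates and 14.6, 22.5, 11.5, 14.9 and 17.1 CPM in vehicle replicates; it rose 2.23-fold. Vehicle replicate 2 was again the highest control for both of these genes.

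Ddit3, which encodes the stress factor CHOP, rose by 0.64 (adjusted p = 0.00365), and Vldlr, a lipoprotein receptor, by 0.58 (adjusted p = 0.000557). Adm2, a peptide of the adrenomedullin family, averaged 6.09 ± 1.41 CPM in 50 µM BPA libraries and 2.26 ± 1.16 CPM in vehicle libraries (SD, n = 5 each). Atf4 itself had 341, 358, 299, 359.5 and 384 CPM in 50 µM BPA replicates, against 289, 312, 226, 280.2 and 297 CPM in vehicle replicates, with overlap between the groups. Its rise of 0.31 ± 0.083 passed the threshold (adjusted p = 0.0269) but not in the fits without 50 µM replicate 2, 4 or 5, whose adjusted p were 0.0503, 0.0663 and 0.0762. ATF4 is known to be controlled mainly at translation, which RNA counts do not measure.

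Amino acid supply moved with these genes. Slc7a5 and Slc3a2, the paired subunits of a transporter for large neutral amino acids, rose 1.88-fold and 1.51-fold (adjusted p = 6.66e-05 and 6.3e-05). Slc7a1, a carrier of cationic amino acids, averaged 118.5 ± 11 CPM in 50 µM BPA libraries and 73.1 ± 6.53 CPM in vehicle libraries (SD, n = 5 each). Cth had 11, 12.5, 14.9, 16.6 and 14.5 CPM in 50 µM BPA replicates and 4.79, 5.89, 4.38, 3.13 and 7.03 CPM in vehicle replicates, 2.76-fold higher with BPA. Asns, asparagine synthetase, had 118, 127, 122, 138 and 123 CPM in 50 µM BPA replicates and 82.9, 85, 59.8, 81.4 and 92.2 CPM in vehicle replicates. For each of these genes the lowest treated library was above the highest vehicle library. Among tRNA synthetases, Aars (alanine) rose by 0.37, Cars (cysteine) by 0.39, Lars (leucine) by 0.32 and Nars (asparagine) by 0.29, so the rises were smaller than those of the transporters named.

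The letters TGATGNAA, a part of the composite element bound by ATF4 with C/EBP partners, were searched on both strands of the same promoter windows. They stood in a window of 6 of 20 genes of the stress response list (30%), 5 of 20 of the amino acid list (25%) and 5 of 12 of the tRNA synthetase list (41.7%). The share of all windows was 3.97%, again counted by window and not by gene. Of those 6 stress response genes 3 were called, namely Trib3, Chac1 and Vldlr. Of the 5 amino acid genes 2 were called, and of the 5 tRNA synthetases 4. In the whole lists 12 of 22, 15 of 26 and 9 of 20 genes rose, in the same order. Whether carriers were called more often than other members was not tested. The promoters of Trib3 (chr2:152344011-152344310, minus strand) and Chac1 (chr2:119350992-119351291, plus strand) are shown because both genes rose more than 2-fold and hold a match. They are written in the direction of transcription, with the matching letters in capitals; in both the match lies on the opposite strand and reads as its reverse complement:
Trib3: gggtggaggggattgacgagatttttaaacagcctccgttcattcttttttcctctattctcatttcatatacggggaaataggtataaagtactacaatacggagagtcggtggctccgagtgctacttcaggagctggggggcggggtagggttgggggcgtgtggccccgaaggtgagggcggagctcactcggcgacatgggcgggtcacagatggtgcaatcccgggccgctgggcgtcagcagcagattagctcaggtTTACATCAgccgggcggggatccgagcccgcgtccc
Chac1: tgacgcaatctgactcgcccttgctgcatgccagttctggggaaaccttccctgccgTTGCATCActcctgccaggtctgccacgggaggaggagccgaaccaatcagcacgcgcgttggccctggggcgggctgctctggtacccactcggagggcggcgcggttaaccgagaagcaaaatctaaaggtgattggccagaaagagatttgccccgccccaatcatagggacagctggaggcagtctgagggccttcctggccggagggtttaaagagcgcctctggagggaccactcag

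**Figure D3:**
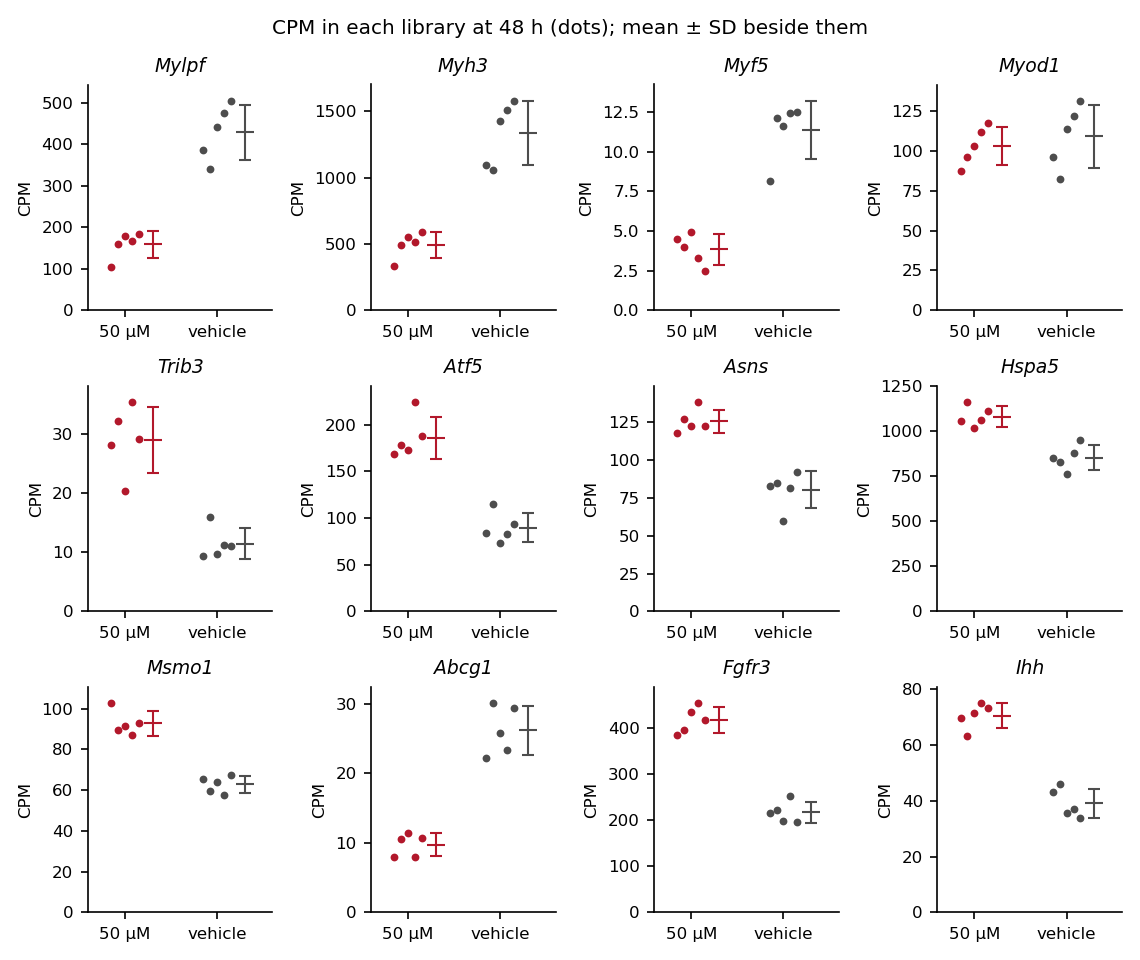
Dots are the CPM of each library at 48 h, 50 µM BPA (red) left of vehicle (grey), in the order of replicates 1 to 5, with mean ± SD (n = 5) to their right. Except for Myod1, the groups do not overlap in the genes shown. Naming genes by a small p or a large change favours this.

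ER chaperones rose as well. Of 23 genes of ER folding, 11 rose and none fell, with a median of 0.19; 17 rose with the replicate block, and 7 rose without 50 µM replicate 3 or replicate 5. Hspa5, the main ER chaperone BiP (ENSMUSG00000026864, chr2:34771970-34777547), had 1057, 1162, 1018, 1061 and 1115 CPM in 50 µM BPA replicates and 852, 829, 762, 879.6 and 951 CPM in vehicle replicates, without overlap (1.27-fold; adjusted p = 0.00253). Calr and Canx, lectin chaperones of glycoproteins, rose by 0.37 and 0.30, and Pdia4, a disulfide isomerase, by 0.33. Of 23 genes of ER-associated degradation and ER stress sensors, 8 rose and none fell (14 with the replicate block and 13 with the epidermal covariate). Herpud1, a membrane protein of that pathway, averaged 101 ± 8.37 CPM in 50 µM BPA libraries and 70.4 ± 8.25 CPM in vehicle libraries (SD, n = 5 each). Derl3 had 5.51, 4.72, 6.52, 5.59 and 5.69 CPM in 50 µM BPA replicates and 2.47, 2.66, 2.49, 2.6 and 1.27 CPM in vehicle replicates, 2.44-fold higher, from a low level.

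The ER stress element, searched as CCAAT followed by any 9 bases and CCACG and known to be bound by ATF6 with NF-Y, was looked for on both strands. It stood in a window of 7 of 18 ER folding genes (38.9%), 6 of them called. In the degradation list it stood in a window of 2 of 19 genes (10.5%), Derl3 and Syvn1, both called. The share of all windows was 0.119%, counted by window and not by gene. In the whole lists 11 of 23 folding genes and 8 of 23 degradation genes rose. Whether carriers were called more often than other members was not tested. The promoter of Hspa5 is shown as the classic carrier of the element, in capitals (chr2:34771840-34772139, plus strand):
Hspa5: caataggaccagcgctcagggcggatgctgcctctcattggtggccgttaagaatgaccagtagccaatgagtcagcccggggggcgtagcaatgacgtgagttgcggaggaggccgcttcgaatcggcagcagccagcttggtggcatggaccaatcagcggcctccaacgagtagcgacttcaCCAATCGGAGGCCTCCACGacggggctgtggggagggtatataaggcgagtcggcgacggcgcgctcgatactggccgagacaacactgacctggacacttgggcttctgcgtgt

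Of 28 genes of cholesterol synthesis and uptake, 15 rose and none fell (median 0.28); without a library, 10 to 14 rose, the fewest without 50 µM replicate 4. Msmo1, a C4-methylsterol oxidase, had 103, 89.7, 91.4, 87 and 93.1 CPM in 50 µM BPA replicates and 65.5, 59.8, 64, 57.5 and 67.4 CPM in vehicle replicates, 1.48-fold higher without overlap (adjusted p = 4.07e-05). Dhcr7, which makes the last step to cholesterol, rose by 0.53, Cyp51, a lanosterol demethylase, by 0.48, and Insig1, an ER anchor of the SREBP complex, by 0.32. Of 12 genes of sterol efflux, 3 fell and 1 rose (median -0.040). Abcg1, an exporter of cholesterol that liver X receptors induce, had 7.94, 10.5, 11.5, 7.92 and 10.7 CPM in 50 µM BPA replicates and 22.2, 30, 25.8, 23.3 and 29.4 CPM in vehicle replicates, 2.69-fold lower (adjusted p = 2.16e-05). Abca1, an exporter of the same kind, fell by 0.39, and Apoe, a lipoprotein of macrophages and other cells, by 0.66 (adjusted p = 0.00116).

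Macrophages also express Abcg1, Abca1 and Apoe. Of 23 macrophage markers tested, 6 fell and none rose (median -0.42; 10 fell with the replicate block, and 3 without 50 µM replicate 3 or 4 or vehicle replicate 2), and they took 0.0232% to 0.0412% of counts in 50 µM BPA libraries and 0.0406% to 0.0531% in vehicle libraries. Csf1r, the receptor for macrophage growth factor, had 6.5, 14.4, 12.2, 9.26 and 13 CPM in 50 µM BPA replicates and 21.4, 30.4, 21.9, 21.5 and 26.4 CPM in vehicle replicates. Cx3cr1, a chemokine receptor, fell by 1.06, and C1qa, a complement chain made by tissue macrophages, by 0.99. The part of the macrophage level in the falls of the efflux genes was not tested.

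Of 22 genes of fatty acid synthesis, 10 rose and 1 fell. Scd1 and Scd2, which desaturate fatty acids, rose by 0.54 and 0.32, and Elovl6, which elongates them, by 0.25. Scd1 had 128, 134, 129, 123 and 113 CPM in 50 µM BPA replicates and 85.6, 89, 90.9, 85.4 and 81.8 CPM in vehicle replicates. Of 22 PPAR targets and genes of fat oxidation, 4 fell and none rose. Cpt1a, which carries fatty acids into mitochondria, had 38.2, 38.5, 38, 42.5 and 42.5 CPM in 50 µM BPA replicates and 93.8, 77.5, 68, 57.1 and 65.2 CPM in vehicle replicates, 1.81-fold lower. Fabp3, a fatty acid binding protein that is abundant in muscle, fell by 1.01; the part of the muscle fall in it was not tested.

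Of 27 genes of cartilage matrix, 3 fell and none rose at the threshold, against backgrounds of 5.3% and 3.88% (4 rose without vehicle replicate 2, and 3 by DESeq2 or with no filter). The list took 2.32% to 2.94% of counts in 50 µM BPA libraries and 1.98% to 2.68% in vehicle libraries. Col2a1, the type II collagen that makes up most of the cartilage fibril, had 10800, 13820, 11130, 10920 and 10760 CPM in 50 µM BPA replicates and 10080, 11310, 8004, 9531 and 8416 CPM in vehicle replicates. The groups overlapped, replicate 2 was the highest of its group in both, and the difference of 0.28 ± 0.095 was not called (adjusted p = 0.0826). With the replicate block, Col2a1 was called higher (adjusted p = 0.00045), as were Acan, the aggregating proteoglycan, and Col9a1, a collagen on the surface of its fibrils (adjusted p = 0.000377 and 0.0118). DESeq2 also called Col2a1 and Acan higher, and without vehicle replicate 2 the adjusted p of Col2a1, Acan and Col9a1 were 0.0212, 0.0184 and 0.0486. Under the block 6 genes of the list rose and 7 fell, and 6 fell without 50 µM replicate 2. The members that fell in the 10-library fit without the block were Fmod, Ucma and Cilp. Fmod, the collagen-binding proteoglycan fibromodulin, had 128, 140.3, 125, 115 and 125 CPM in 50 µM BPA replicates and 196, 223, 203, 186 and 184 CPM in vehicle replicates. Ucma averaged 0.899 ± 0.409 CPM in 50 µM BPA libraries and 4.88 ± 2.44 CPM in vehicle libraries, and Cilp, a protein of the intermediate cartilage zone, 15.5 ± 5.72 and 34.4 ± 9.84 CPM in the same order of groups (SD, n = 5 each). Fmod and Cilp are also expressed in tendon.

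Of 15 early chondrocyte regulators, 3 rose (Fgfr3, Sox6 and Sox9) and 3 fell, with a median of -0.064; 1 rose without 50 µM replicate 3 or 4, and 1 fell without 50 µM replicate 2, 3 or 4. Fgfr3, the FGF receptor that restrains growth-plate proliferation (ENSMUSG00000054252, chr5:33721674-33737068), had 386, 395, 435.5, 454 and 418 CPM in 50 µM BPA replicates, against 216, 223, 198, 252 and 196 CPM in vehicle replicates. The lowest treated library was above the highest vehicle library, and the gene rose 1.92-fold (log2 0.94 ± 0.071; adjusted p = 5e-06). Ihh, the hedgehog ligand of prehypertrophic chondrocytes (chr1:74945315-74951672), had 69.7, 63.3, 71.5, 75 and 73.4 CPM in 50 µM BPA replicates and 43.3, 46, 35.7, 37 and 33.9 CPM in vehicle replicates, 1.8-fold higher (adjusted p = 2.73e-05). Pth1r, the receptor of the signal PTHrP that Ihh induces, rose by 0.28 (adjusted p = 0.0292), and this call was lost without 50 µM replicate 4 or 5 or vehicle replicate 3 or 4, at adjusted p of 0.0579 to 0.0701. Sox9, the master factor of cartilage, rose by 0.23 (adjusted p = 0.024), and Sox6, its partner on the Col2a1 enhancer, by 0.26 (adjusted p = 0.021). The call of Sox9 was lost without 50 µM replicate 1, 3 or 4 or vehicle replicate 2 or 3, and that of Sox6 without 50 µM replicate 3, 4 or 5 or vehicle replicate 3, at adjusted p of 0.0514 to 0.0592. Sox5, the paralog of Sox6, was not called (log2 fold change 0.14 ± 0.074). Trps1, a zinc-finger repressor in chondrocytes, fell by 0.27 (adjusted p = 0.0123). Runx3, a factor of chondrocyte maturation, fell by 0.42 (adjusted p = 0.0237), a call lost without 50 µM replicate 2, 3 or 4 or vehicle replicate 1, 2 or 3.

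Of 24 genes of chondroitin sulfate synthesis, which builds the chains of aggrecan, 7 rose and 2 fell. Xylt1, the xylosyltransferase that starts each chain, had 172, 176, 169, 191 and 189 CPM in 50 µM BPA replicates and 114, 122, 118.5, 136 and 113 CPM in vehicle replicates, 1.49-fold higher without overlap (adjusted p = 3.48e-05). Csgalnact1, which commits the chain to chondroitin, rose by 0.41, and Slc26a2, the sulfate carrier of chondrocytes, by 0.38. Chpf, a chain polymerising factor, fell by 0.30.

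In the list of hypertrophy and mineralisation, 4 of 27 genes rose and 1 fell, 6 and 4 with the replicate block. Adamts9, a protease of versican, rose by 0.49. Mef2c, a factor of chondrocyte hypertrophy and of muscle, fell by 0.64 (adjusted p = 0.00267); the part of the muscle fall in it was not tested. Col10a1, the collagen of hypertrophic cartilage, had 80.8, 300.5, 114, 116 and 82 CPM in 50 µM BPA replicates and 160.2, 252, 99.9, 111 and 185 CPM in vehicle replicates, with replicate 2 the highest in each group (adjusted p = 0.753; without 50 µM replicate 2, log2 fold change -0.71, adjusted p = 0.0661). Ibsp, bone sialoprotein, had 141, 504, 317, 303 and 452 CPM in 50 µM BPA replicates and 719, 825, 467, 365.5 and 779 CPM in vehicle replicates. Its difference of -0.88 ± 0.28 missed the threshold (adjusted p = 0.0602) and passed it with the replicate block (adjusted p = 0.00349) and without 50 µM replicate 2 (0.0326) or vehicle replicate 4 (0.0256). Alpl, Spp1 and Phex, of mineralising matrix, were not called (adjusted p = 0.784, 0.716 and 0.848). Dmp1, a matrix protein of osteocytes, and Vegfa, the vessel growth factor of hypertrophic cartilage, had log2 fold changes of 0.64 ± 0.22 and 0.38 ± 0.12, not called (adjusted p = 0.0912 and 0.057) but called with the block (adjusted p = 0.0252 and 0.000678) and by DESeq2. Dmp1 was also called without 50 µM replicate 1 (adjusted p = 0.0478) and Vegfa without vehicle replicate 2 (adjusted p = 0.00256).

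Of 25 genes of osteoblasts and perichondrium, 4 rose and 6 fell; 2 fell without 50 µM replicate 1, 3 or 5 or vehicle replicate 2 or 5, 3 fell without 50 µM replicate 4, and 2 rose without 50 µM replicate 1, 2 or 5 or vehicle replicate 1, 2 or 4. Runx2 and Sp7, the factors that set bone fate, were not called (log2 fold changes -0.011 ± 0.078 and -0.075 ± 0.14). Dlx5 and Dlx3, homeobox factors of bone progenitors, rose by 0.38 and 0.59. Postn, a matrix protein of perichondrium and connective tissue, had 384, 509, 419, 412 and 452 CPM in 50 µM BPA replicates and 544, 604, 584, 521.5 and 676 CPM in vehicle replicates, and fell by 0.43. Col1a1, a chain of type I collagen, fell by 0.38 ± 0.10 (adjusted p = 0.0327), a call lost without 50 µM replicate 1, 3, 4 or 5 or vehicle replicate 1, 2 or 5, at adjusted p of 0.0531 to 0.0787. Among 36 collagens of all types, 10 fell and 1 rose, and 4 or 5 fell without 50 µM replicate 1, 3, 4 or 5 or vehicle replicate 2 or 5. The rises numbered 5 with the replicate block, 3 by DESeq2, 4 without vehicle replicate 2, 2 without 50 µM replicate 1 and 0 without 50 µM replicate 3 or vehicle replicate 4.

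Of 26 genes of tendon and connective tissue, 10 fell and none rose (median -0.26; 16 fell and 1 rose with the replicate block, and 6 fell in a fit of 30 libraries). Tnmd, tenomodulin of differentiated tendon, had 36.3, 44.1, 36.2, 37.6 and 50.8 CPM in 50 µM BPA replicates and 78.2, 77.2, 84.8, 98.6 and 119.7 CPM in vehicle replicates, 2.24-fold lower without overlap (adjusted p = 3.48e-05). Htra3, a secreted serine protease, fell by 0.54, and Col6a2, a chain of beaded-filament collagen, by 0.37. Scx, the tendon progenitor factor, had 97.1, 90.2, 95.5, 114 and 122 CPM in 50 µM BPA replicates and 104, 98.3, 125, 142 and 158 CPM in vehicle replicates, and was called with the replicate block alone (adjusted p = 0.182 without it and 0.0025 with it). In the joint interzone list, 3 of 18 genes rose and 7 fell. Gdf5, the growth factor that marks forming joints, rose 1.63-fold, with 63.8, 51.6, 59.4, 69.8 and 54.9 CPM in 50 µM BPA replicates and 42.4, 38.8, 32.7, 39.5 and 30.4 CPM in vehicle replicates. Wnt4, a ligand of the joint line and epidermis, rose by 0.52, and Osr2, a zinc-finger factor of joints, fell by 0.54. The falls in this list numbered 3 or 4 without 50 µM replicate 1, 3 or 4 or vehicle replicate 1 or 2.

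Signalling genes changed in a mixed way. In the list of FGF ligands, receptors and targets, 4 of 26 rose and 7 fell. Beside Fgfr3, the receptor Fgfr2 rose by 0.32 (adjusted p = 0.00142). Among feedback targets, Etv5, a factor induced by FGF, had 80.2, 80.4, 90, 78.9 and 84.4 CPM in 50 µM BPA replicates and 108, 103, 111, 120.2 and 115 CPM in vehicle replicates (adjusted p = 0.000185), and the inhibitors Spry1 and Spry2 fell by 0.51 and 0.31 (adjusted p = 0.000729 and 0.00133). Of 36 genes of the BMP and TGF-beta families, 10 were higher and 4 lower; 2 were lower without 50 µM replicate 2, 4 or 5 or vehicle replicate 1, 2, 3 or 5. Gdf10, a ligand also called BMP3b, rose by 0.55, Tgfb2 by 0.39 and Bambi, a decoy receptor, by 0.52; Chrd, the BMP antagonist chordin, fell by 0.57. In the Wnt list, 4 of 28 rose and 4 fell, against 9 and 7 with the replicate block; 2 fell without 50 µM replicate 3 or 5 or vehicle replicate 2. Dkk3, of the Dickkopf family, rose by 0.39, and Notum, a secreted Wnt inhibitor, fell by 0.89. In the list of Hedgehog and PTHrP, 4 of 22 rose and 1 fell (7 rose by DESeq2), and Foxc1, a forkhead factor of skeletal progenitors, rose by 0.42. Of 35 limb patterning genes, Msx2, a homeobox target of BMP, was the one called, with 12.5, 10.9, 10.5, 7.97 and 9.59 CPM in 50 µM BPA replicates and 5.46, 6.62, 6.76, 4.72 and 3.84 CPM in vehicle replicates.

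In the retinoic acid list, 6 of 19 genes rose and 4 fell. Rarb, which retinoic acid is known to induce, had 8.63, 7.12, 9.55, 9.21 and 10.1 CPM in 50 µM BPA replicates and 5.04, 3.34, 4.87, 3.71 and 2.95 CPM in vehicle replicates, 2.24-fold higher without overlap (adjusted p = 0.000472). Aldh1a3 and Aldh1a2, enzymes that make retinoic acid, fell. Aldh1a3 had 9.03, 11.2, 10.2, 11.5 and 11 CPM in 50 µM BPA replicates and 26.7, 25.3, 27.9, 33.5 and 34.6 CPM in vehicle replicates, 2.8-fold lower (adjusted p = 5e-06), and Aldh1a2 was lower by 0.88 in log2 (adjusted p = 0.000611). Crabp2, a cellular binding protein of retinoic acid, fell by 0.42.

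Of 11 genes of estrogen and related receptors and their targets, 1 was called, against 9.18% of all genes tested. This was Gper1, a membrane receptor, which had 5.26, 4.96, 5.83, 4.36 and 3.74 CPM in 50 µM BPA replicates and 7.15, 7.72, 7.68, 8.48 and 8.39 CPM in vehicle replicates (adjusted p = 0.00566). Esr1, estrogen receptor alpha, had 0.596, 1.47, 0.931, 1.19 and 0.82 CPM in 50 µM BPA replicates and 0.978, 0.73, 1.14, 0.53 and 0.75 CPM in vehicle replicates, and Esr2, estrogen receptor beta, 0.445 to 1.24 CPM and 0.103 to 0.891 CPM in the same order of groups. Neither was called (adjusted p = 0.678 and 0.344), and at such low counts the errors were wide (± 0.34 and ± 0.46 in log2). Esrra, an orphan receptor of energy metabolism, was not called (log2 fold change -0.13 ± 0.11). Of 9 genes of the aryl hydrocarbon receptor, 1 was called, again near 9.18% (4 with the replicate block, which called 2598 genes). Cyp1b1, a monooxygenase that it induces, rose by 0.68 (adjusted p = 0.000738). Cyp1a1, its best-known target, had 6.05, 4.62, 8.42, 3.56 and 5.49 CPM in 50 µM BPA replicates and 4.63, 3.44, 3.41, 1.55 and 3.33 CPM in vehicle replicates, and was not called (adjusted p = 0.0828) but was called with the replicate block (adjusted p = 0.00893).

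Of 15 heat shock genes, the small heat shock proteins Hspb1 and Cryab fell and none rose. Hspb1 had 26.4, 25.1, 22.7, 23.5 and 24.1 CPM in 50 µM BPA replicates and 62.3, 56.7, 46.5, 50.6 and 64.5 CPM in vehicle replicates, 2.31-fold lower. Cryab, a chaperone of muscle desmin, fell by 1.32; the part of the muscle fall in it was not tested. Of 24 targets of the oxidant factor NRF2, 6 rose and 1 fell; Gsta4, a glutathione transferase, rose by 0.68 and Hmox1, heme oxygenase, by 0.56. Of 29 p53 targets, 5 rose and none fell (10 with the replicate block, 3 without 50 µM replicate 5 and 9 without vehicle replicate 5). Bbc3, the apoptosis gene PUMA, rose by 0.47, whereas Cdkn1a, the cell cycle inhibitor p21, was not called (178 to 295 CPM in 50 µM BPA libraries and 213 to 285 CPM in vehicle libraries). Of 30 genes of mitosis, 1 fell and none rose, and Mki67, a marker of cycling cells, was not called (log2 fold change -0.076 ± 0.089). Slc2a1, the glucose carrier, and Hk2, a hexokinase, rose by 0.61 and 0.55; in glycolysis as a whole 3 of 24 rose and 3 fell.

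Of 15 genes encoded by mitochondrial DNA, 3 rose and 1 fell. The ribosomal RNA mt-Rnr1 had 1068, 699, 540, 592 and 658 CPM in 50 µM BPA replicates and 369, 277, 283, 302 and 311 CPM in vehicle replicates, with replicate 1 of 50 µM BPA the highest. mt-Co1, a subunit of cytochrome oxidase, rose by 0.45, and mt-Nd6, which lies on the other strand of mitochondrial DNA, fell by 0.46. Whether strand was kept is not known, so mt-Nd6 counts cannot be told from those of the opposite strand. Libraries were made from poly(A) RNA, and the effect of that selection on the mt-Rnr1 counts was not tested. Of 49 nuclear genes of the respiratory chain, 48 had a log2 fold change below 0 (median -0.15, against -0.0049 over all genes tested). In this list 4 were called lower, against a background of 5.3% (1 or 2 without 50 µM replicate 3, 4 or 5 or vehicle replicate 1, 2 or 5). With the replicate block 14 were called lower, beside 1379 of all 16732 genes. Of 15 tubulins, 4 fell and 1 rose: Tubb6 and Tubb2b fell by 0.68 and 0.41, and Tubb5 rose by 0.20 (adjusted p = 0.036), a call lost without 50 µM replicate 1, 4 or 5 or vehicle replicate 2, 3 or 4. Ctsl, a lysosomal protease, had 269, 304, 302, 311.5 and 327 CPM in 50 µM BPA replicates and 207, 231, 211, 193.5 and 211 CPM in vehicle replicates, and Lamp2, a lysosomal membrane protein, rose by 0.35.

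Of 23 endothelial markers, 2 were called, both lower, near the 9.18% of all genes tested. Prox1, of lymphatic endothelium and other cells, fell by 0.66. Of 14 markers of pericytes and smooth muscle, 3 fell: Acta2, smooth muscle actin that early skeletal muscle also expresses, had 91.6, 93.2, 119, 117 and 122 CPM in 50 µM BPA replicates and 179.7, 154, 239.8, 246 and 265 CPM in vehicle replicates, and Rgs5, a pericyte gene, fell by 0.89, beside Des. The part of the muscle fall in Acta2 and Des was not tested. Of 10 neuronal genes 2 fell, among them Stmn2 (by 0.96). Kit, a receptor of mast cells and pigment cell precursors, rose by 0.57. Of 32 epidermal markers, Wnt4 was called; Krt14, another keratin of basal epidermis, had a log2 fold change of -0.27 ± 0.59, with 2.96 CPM in vehicle replicate 4.

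The same contrast at 24 and 3 h came from other libraries with their own vehicle groups, and all 30 were fitted together to compare times. In that fit 906 genes were called at 24 h (4.86% of 18635 tested), 453 at 3 h (2.43%) and 1418 at 48 h (7.61%). The rises and falls were 2.11% and 2.75% of genes at 24 h, 1.44% and 0.993% at 3 h, and 3.45% and 4.16% at 48 h. Of the genes called higher at 48 h, 259 were also called higher at 24 h, which is 40.3% of the 48 h list and 65.7% of the 24 h list; of those called lower, 340 were shared, 43.9% and 66.4% in the same order. With 3 h, 118 rises were shared (18.4% of the 48 h list and 44% of the 3 h list) and 41 falls (5.29% and 22.2%). Calls in opposite directions numbered 1 between 48 and 24 h and 6 between 48 and 3 h.

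The difference between the effects at 48 and 24 h was called for 0 of 18635 genes by edgeR, with 620 at an unadjusted p under 0.05. DESeq2 also called 0, with 654 at an unadjusted p under 0.05. Both counts lie below the 0.05 share of genes that chance alone gives, so they show no excess of small p-values. The effect at 48 h minus that at 3 h was called for 390 genes, 85 higher (0.456%) and 305 lower (1.64%), 2.09% of genes in all. Of 45 sarcomere genes in this fit, 34 had a lower effect at 48 h than at 3 h; none of them was called at 3 h, 31 fell at 24 h and 40 fell at 48 h, with medians of 0.042, -0.77 and -1.16. Mylpf had log2 fold changes of -0.026 ± 0.12 at 3 h, -0.98 ± 0.12 at 24 h and -1.42 ± 0.12 at 48 h. Its effects at 48 and 3 h differed by -1.39 ± 0.17 (adjusted p = 1.26e-05). Myh7b was at -0.97 ± 0.19 at 24 h and -2.20 ± 0.20 at 48 h, and Sptb at -0.27 ± 0.11 and -1.05 ± 0.11; neither difference passed adjustment (adjusted p = 0.336 for both).

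Sterol synthesis genes rose in greatest number at 3 h. Of the 28 genes of cholesterol synthesis and uptake, 22 rose at 3 h, 8 at 24 h and 14 at 48 h, with medians of 0.74, 0.13 and 0.29, and 16 had a lower effect at 48 h than at 3 h. Msmo1 was at 1.02 ± 0.075, 0.25 ± 0.074 and 0.58 ± 0.074 at 3, 24 and 48 h (48 minus 3 h, adjusted p = 0.0163), and Insig1 at 1.11, 0.20 and 0.33. ER folding genes rose at each time: 13 of 23 at 3 h, 13 at 24 h and 10 at 48 h. The stress response list had 2, 9 and 10 rises of 22 at 3, 24 and 48 h. Trib3 and Atf5 were higher at 48 h than at 3 h (by 0.95 ± 0.25 and 0.83 ± 0.19; adjusted p = 0.0358 and 0.0108). Fgfr3 was at 0.50 ± 0.073, 0.89 ± 0.072 and 0.96 ± 0.072, and Ihh at 0.31, 0.47 and 0.87, with a 48 minus 3 h difference that missed the threshold (adjusted p = 0.0526). Col10a1 and Ibsp, which were not called at 48 h, were called lower at 24 h (log2 fold changes -1.75 ± 0.33 and -1.72 ± 0.32; adjusted p = 0.000994 and 0.00099); the differences between the times were not called (adjusted p = 1). Among tubulins, 10 of 15 fell at 3 h, 7 at 24 h and 4 at 48 h.

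**Figure D4:**
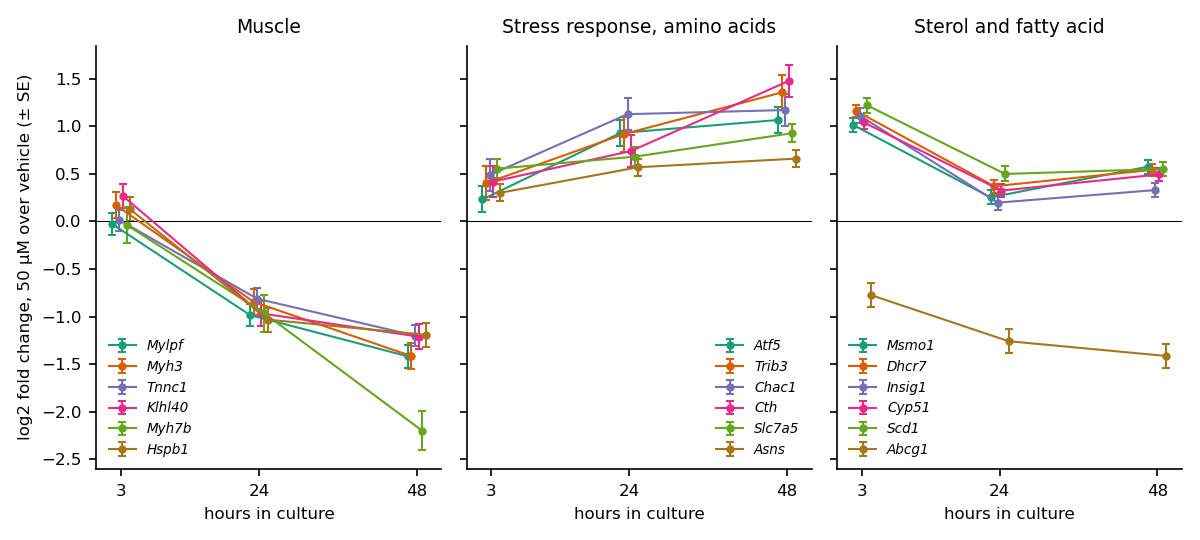
Points are log2 fold changes of 50 µM BPA over vehicle at 3, 24 and 48 h from 1 fit of 30 libraries (5 per group), with standard errors; points of different genes are shifted sideways by up to about 1.4 h so that bars can be read, and lines only join points of the same gene. Genes of the muscle panel, which includes the heat shock gene Hspb1, lie nearer to 0 at 3 h than at 24 and 48 h, where they are below -0.75. Points of the stress response panel are higher at 48 h than at 3 h, a difference called for Cth, Trib3 and Atf5 alone. Msmo1, Dhcr7, Insig1, Cyp51 and Scd1 are highest at 3 h.

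At 10 µM BPA for 48 h, 14 of 17484 genes were called against vehicle in a fit of the 15 libraries of 48 h (0.0801%), 13 higher (0.0744%) and 1 lower (0.00572%). The 10 and 50 µM comparisons share their vehicle libraries, so no overlap of their calls is given. The direct test of 50 against 10 µM, whose contrast leaves out the vehicle libraries, called 603 genes (3.45%), 176 higher (1.01%) and 427 lower (2.44%), and 391 without 50 µM replicate 1. With the replicate numbers of the titles as a block it called 1115, and with those of the library codes 1374; codes and titles exchange numbers 1 and 2 in the 10 µM group, and the titles were followed. Of 44 sarcomere genes, 36 were lower at 50 than at 10 µM, and none was called at 10 µM against vehicle. Of 26 genes of amino acid supply 16 were higher at 50 than at 10 µM, of 22 stress response genes 9, of 20 tRNA synthetases 7, and of 28 genes of cholesterol synthesis and uptake none.

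Mylpf had 402, 215.5, 347, 369.8 and 379 CPM in 10 µM replicates 1 to 5, with replicate 2 the lowest, and was 1.10 ± 0.16 lower in log2 at 50 than at 10 µM (50 minus 10 µM, -1.10; adjusted p = 0.000313). Trib3 had 10.9, 8.84, 12.4, 11.6 and 15.9 CPM in 10 µM replicates, 0.058 from vehicle in log2 (adjusted p = 0.984), and was 1.28 ± 0.17 higher at 50 µM. Arrdc3, an arrestin-domain protein, and Xylt1 were near the vehicle level at 10 µM (0.064 and 0.10 in log2) and 0.56 ± 0.067 and 0.48 ± 0.056 higher at 50 than at 10 µM. Ctsl, Hspb1, Tceal7 and Tigd4 were also among the genes with the smallest p in this test. Other genes had moved by 10 µM. Cpt1a had 42, 41.7, 45.7, 37.2 and 39.6 CPM in 10 µM replicates, -0.81 ± 0.10 in log2 from vehicle (adjusted p = 0.0022), and a 50 minus 10 µM difference of -0.047 ± 0.10. Gdf10 was at 0.43 ± 0.079 with 10 µM and 0.12 ± 0.079 in 50 minus 10 µM (adjusted p = 0.548), and Adamts9 and Msmo1 were among the 13 genes called higher at 10 µM. Fgfr3 was called at both steps: 0.42 ± 0.074 for 10 µM against vehicle and 0.53 ± 0.073 for 50 against 10 µM (adjusted p = 0.0357 and 0.000262).

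**Figure D5:**
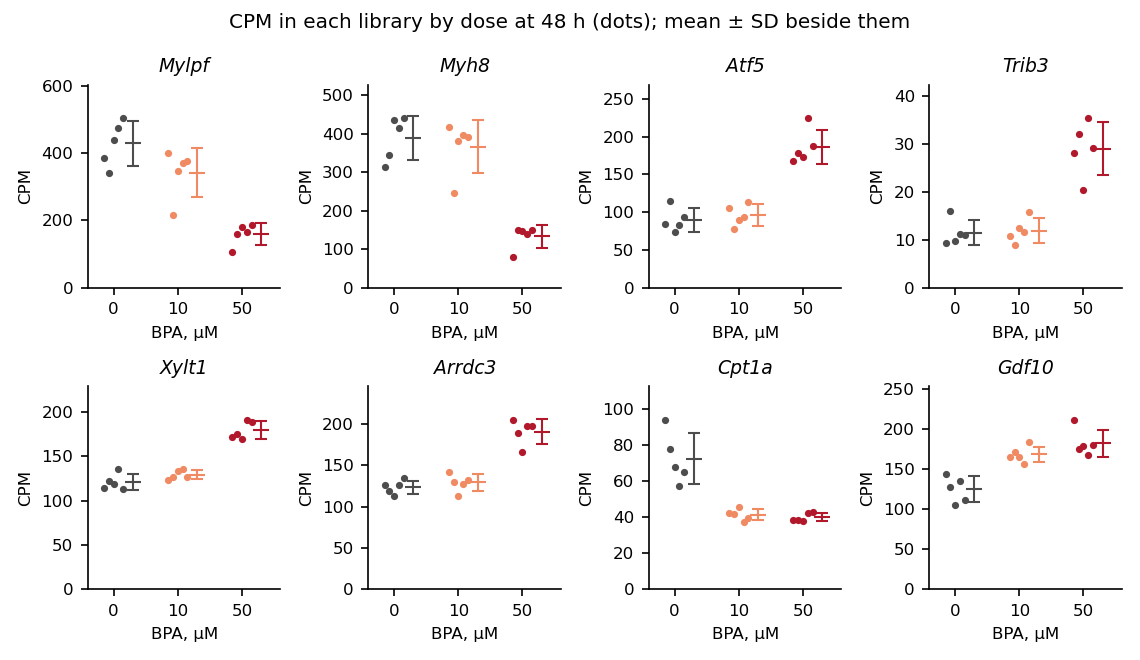
Dots are the CPM of each library at 48 h for 0 (vehicle, grey), 10 (orange) and 50 µM BPA (red), in the order of replicates 1 to 5, with mean ± SD (n = 5) to their right; doses are evenly spaced, not to scale. Mylpf, Myh8, Atf5, Trib3, Xylt1 and Arrdc3 differ mainly between 10 and 50 µM, and Cpt1a and Gdf10 between vehicle and 10 µM.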

How the data were processed

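The authors deposited read counts per gene, FPKM, and log2 fold changes with p-values and adjusted p-values for each comparison, per the file headers; CASAVA 1.8, STAR 2.5, HTSeq 0.6.1, DESeq2 2 and the mm10 build are named in the submitters' processing notes. Libraries were made from poly(A) RNA of 1 µg total RNA, per the labels' protocols, and no source used here states whether strand was kept; a gene and its antisense partner cannot be told apart. Vehicle counts in both tables of 48 h were identical (146870 values compared, 0 unequal).

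Counts as deposited were analysed with edgeR 4.0.16 in R 4.3.3: filterByExpr (minimum count 10, minimum total count 15), TMM scaling, quasi-likelihood test, Benjamini-Hochberg threshold of 0.05, on the 10 libraries (16732 of 30707 genes). CPM are counts over TMM-scaled library sizes; the SE of a log2 fold change was taken as its size over the root of F. Times were compared as interactions in 30 libraries and doses in the 15 libraries of 48 h. The authors' FPKM were used for the limb identity check alone, and their p-values for the count of their deposited table alone. Alternatives were DESeq2 1.42.0, other scalings and filters, an epidermal covariate, larger fits, a replicate block and each library left out. Tests were checked on simulated counts.

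The titles number the replicates 1 to 5. Deviations from the group means of same-numbered 50 µM and vehicle libraries correlated at 0.215, 0.255, 0.225, 0.317 and 0.151, each highest with its own number. No label says what the numbers mark. The test behind the adjusted p-values therefore has no block unless one is named, and leaves this shared deviation in the spread. The block is given beside it as an alternative. Replicates were not duplicates (chi-square per degree of freedom 6.91 to 17.7). Members and gene lists were chosen with earlier results of these data known. Genes named are the 10 largest rises and 10 largest falls (protein-coding, non-overlapping groups, mean count 50 or more), in each list the called members of smallest p (4 at most), a fixed panel, and the 5 of smallest p per direction in the time and dose tests; of these, 155 are printed, and some are not reported here. Tbx5 and Pitx1 were added to check the tissue label, and Syvn1 was named after its values were seen. Vehicle replicate 4 was kept. Promoter sequences are from RefSeq. Intervals were not needed, since no share of a single library is tested; count depth limits genes of a few CPM.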

Additional observations from a re-analysis of the deposited data

Results flagged for a closer look

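In 310 groups of 5 libraries (the genes named, in 50 µM BPA or vehicle at 48 h), 19 single values stood far from the other 4, where chance gives about 1 in 20. In 50 µM replicate 1 these were Csrp3 at 0.248 CPM (others 1.7 to 2.23), Myh8 at 78.3 (others 139 to 151), Mef2c at 177 (others 231 to 252), Dlx5 at 30.4, Runx2 at 51.0 and Gdf10 at 211.5. In 50 µM replicate 2 they were Col2a1 at 13820 CPM, Acan at 1094, Col10a1 at 300.5 (others 80.8 to 116), Slc2a1 at 103, Spry1 at 46.8 and Pdia4 at 347. In vehicle they were Myf5 at 8.13, Stmn2 at 6.79 and Elovl6 at 109.7 CPM in replicate 1, Trib3 at 16.0 in replicate 2, Sox6 at 126.8 in replicate 4, and Derl3 at 1.27 and Lars at 116 in replicate 5. The falls of Csrp3, Myh8 and Mef2c were called with every library left out in turn, 50 µM replicate 1 included. No cause of these values was tested.

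In 56 of the 155 genes named, the effect of 50 µM BPA at 48 h minus that at 3 h passed the interaction test. Of these, 12 had a higher and 44 a lower effect at 48 h. Over all genes tested, 390 of 18635 passed (2.09%). Some genes were named for a small p in this same test, and many for a small p or large change at 48 h. The share among named genes and its split are therefore set in part by the naming. The log2 differences above 0 were 1.06 for Cth, 0.95 for Trib3, 0.83 for Atf5, 0.70 for Hk2, 0.63 for Tubb5, 0.60 for Gsta4, 0.58 for Tgfb2, 0.54 for Csgalnact1, 0.48 for Bambi, 0.46 for Fgfr3, 0.43 for Fgfr2 and 0.38 for Sox9. Those below 0 were -3.61 for Fsd2, -2.85 for Atp1b4, -2.78 for Ucma, -2.21 for Csrp3, -2.17 for Sh3bgr, -2.16 for Myh7b, -1.94 for Best3, -1.78 for Tceal7, -1.73 for Tigd4, -1.64 for Myf5, -1.63 for Fgf6, -1.59 for Myh8, -1.59 for Myh3, -1.52 for Lbx1, -1.49 for Cryab, -1.48 for Klhl40, -1.47 for Cilp, -1.47 for Col22a1, -1.39 for Mylpf, -1.32 for Hspb1, -1.28 for Pygm, -1.25 for Myl1, -1.21 for Tnnc1, -1.21 for Sptb, -1.15 for Casq2, -1.10 for Csf1r, -1.09 for Aldh1a3, -1.09 for Tnmd, -1.04 for Acta2, -1.02 for Fabp3, -1.01 for Rgs5, -0.80 for Prox1, -0.80 for Msc, -0.78 for Fmod, -0.78 for Insig1, -0.73 for Apoe, -0.68 for Cpt1a, -0.67 for Scd1, -0.64 for Abcg1, -0.62 for Dhcr7, -0.56 for Spry1, -0.55 for Cyp51, -0.44 for Msmo1 and -0.44 for Etv5. Msmo1, Dhcr7, Insig1, Cyp51 and Scd1 were called higher at 3 h as well as at 48 h, so their lower effect at 48 h was a smaller rise. Fsd2, a gene of few counts, was at 1.43 ± 0.46 at 3 h (adjusted p = 0.104) and -2.18 ± 0.36 at 48 h.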

How the results depend on the processing

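Against the 1536 genes called at 48 h, the replicate block gave 2598, and other scalings, filters, tools and fits gave 1418 to 2092 (the highest with DESeq2); leaving out a library gave 1111 (without 50 µM replicate 4) to 1370 (without 50 µM replicate 2). The share of called genes that were higher was 42.3% and moved by less than 10 percentage points. For 48 minus 24 h the count was 0 in all alternatives except 1 fit (1 gene without 50 µM replicate 2 of 48 h), with a range of 0 to 1. For 48 minus 3 h, 390 became 588 with DESeq2 and 313 to 476 with a library left out. For 50 against 10 µM, 603 became 976 with DESeq2, 1115 and 1374 under the blocks of title and code numbers, and 391 (without 50 µM replicate 1) to 653 (without 10 µM replicate 2) with a library left out. The cause of these shifts was not tested. Of the 129 named genes called at 48 h, 120 kept the call in every alternative; 8 lost it in 1 or more fits without a library (Atf4, Sox9, Sox6, Pth1r, Col1a1, Tubb5, Runx3 and Unc13c), and Sox6 and Trps1 in the fit of 30 libraries. Many of these genes were named for a small p or a large change in the same fit, which favours keeping the call. Of all 1536 calls, 1076 (without 50 µM replicate 4) to 1247 (without vehicle replicate 3) were also called with a library left out. The block ended no named call and added 9 (Col2a1, Acan, Col9a1, Ibsp, Vegfa, Dmp1, Scx, Myog and Cyp1a1). Of 2943 values compared, 0 reversed direction in a gene called in either of the fits compared. The direction of genes called in neither was not counted, and some changed sign. Spp1 had a log2 fold change of 0.22 with all libraries and -0.10 without 50 µM replicate 4, called in neither fit. Genes of a few CPM have too few counts for small changes to be called.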
